A study of Homo sapiens with 4 samples.

Results

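Amino acid transporters of the plasma membrane were followed in Huh7, a human hepatoma cell line, after delivery of ISL1. The 10 genes were taken by name (SLC7A11, SLC7A5, SLC3A2, SLC43A1, SLC38A2, SLC38A1, SLC1A5, SLC1A4, SLC7A1 and SLC7A2), out of 14055 genes listed for every library. All 10 were present, and all 10 were among the 11085 genes that reached 1 RPKM in 2 or more libraries and were tested. RPKM divides the reads of a gene by the length of its transcript and by the library's depth. Huh7 cells at passage P3 received either an ISL1-expressing lentivirus (2 libraries) or, as control, a blank lentivirus (2 libraries). ISL1 is a LIM-homeodomain transcription factor, and in these cells it was supplied from a virus whose promoter is not given in the sources used here. The labels do not say that the duplicates are separate cultures, so a p-value here reflects the spread of these libraries alone, which may be technical.

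The libraries numbered 1 are called pair 1 and those numbered 2 pair 2, each with 1 ISL1 and 1 blank library. The second ISL1 library is titled with the name of ISL2 and is counted with ISL1, since ISL1 and blank virus are the only treatments in the design. ISL1 stood at 8.22 and 1801 RPKM in the first and second ISL1 libraries, against 0.0454 RPKM in the first blank library and a listed 0 in the second. ISL2 stood at 2.08 and 13.2 RPKM in the ISL1 libraries, against 4.57 and 3.23 RPKM in the blank ones. Depth, inferred from the steps of the RPKM values, was 29429964 to 37134267 reads per library. Markers of hepatocytes and hepatoma cells were all above 1 RPKM in every library (8 of 8), led by AFP. Their summed level was 21610 and 10702 RPKM in the first and second ISL1 libraries, against 20903 and 23448 RPKM in the blank libraries, so that in pair 2 it was lower with ISL1. AFP alone stood at 10266 and 4276 RPKM with ISL1, against 11311 and 11542 RPKM with blank virus. In pair 2 the libraries also differed in markers of other cells. All 7 heart markers reached 1 RPKM in the second ISL1 library, with a summed level of 64.3 RPKM, against 1 of 7 and 11.2 RPKM in the second blank library, where MYH6, MYH7 and MYL7 were listed at 0. Erythroid markers summed to 1.399 RPKM in the second ISL1 library, where HBB, HBG1 and HBG2 were listed at 0, and to 1003 RPKM in the second blank library. In pair 1 only 4 of the 7 heart markers were listed. They summed to 5.70 RPKM with ISL1 and 13.1 RPKM with blank virus, of which NPPB made up 4.87 and 12.4 RPKM. The 1 erythroid gene listed in pair 1 was at most 0.0495 RPKM. The part of these differences in the results of pair 2 was not tested.

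Cells take up amino acids through families of carriers with overlapping substrates. SLC7A11 and SLC7A5 are light chains that reach the membrane only when joined to the heavy chain SLC3A2. The SLC38 and SLC1A carriers bring in glutamine and small neutral amino acids with sodium, and SLC7A1 and SLC7A2 carry arginine and lysine. When amino acids run short or proteins misfold, kinases phosphorylate the initiation factor eIF2, translation of the transcription factor ATF4 increases, and ATF4 raises the transcription of many of these carriers by binding amino acid response elements. The cystine carrier SLC7A11 is also a target of NRF2, which binds antioxidant response elements.

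Promoter windows (250 bases before to 50 after a transcription start, RefSeq, GRCh38.p14) were searched for 8 of the 10 genes, 15 windows in all. SLC7A11 and SLC7A2 had none in that table. Motifs were searched on both strands: TGATGNAA for the amino acid response element, TGACNNNGC for the antioxidant response element, and CTAATNG for ISL1-type homeodomains. The first was found in windows of 5 of the transporter genes (5 of 15 windows, against 3.62% of all 35116 windows). The matches are printed in capitals within 30 bases, 5′ to 3′ on the gene's strand, because these are the letters that ATF4 is known to read. They lie at chr2:64989381-64989410 (+) for SLC1A4, chr11:62881719-62881748 (+) for SLC3A2, chr12:46266502-46266531 (-) for SLC38A1, chr13:29595663-29595692 (-) for SLC7A1 and chr19:46784893-46784922 (-) for SLC1A5. In SLC1A4 and SLC3A2 the motif reads on the other strand.
SLC1A4: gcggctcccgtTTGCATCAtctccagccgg
SLC3A2: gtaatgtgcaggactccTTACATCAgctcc
SLC38A1: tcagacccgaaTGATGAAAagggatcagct
SLC7A1: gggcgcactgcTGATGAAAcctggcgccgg
SLC1A5: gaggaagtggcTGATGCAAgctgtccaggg

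The antioxidant response element letters were found in windows of 4 genes (4 of 15 windows, against 13.3% of all windows), SLC3A2, SLC7A1, SLC7A5 and SLC1A5. The homeodomain letters were in none of the 15 windows and in 4.86% of all windows, which says only that these letters are not in these windows. The 250 bases before an SLC3A2 start at chr11:62881449-62881698 (+) are printed, with the antioxidant response element letters in capitals. SLC3A2 was chosen because the heavy chain showed 1 of the largest differences of pair 2. This start was taken because its window holds those letters, a condition not set for SLC7A5. The same stretch for its light chain SLC7A5, at chr16:87869508-87869757 (-), holds no complete match before the start; the match of SLC7A5 begins 2 bases before the start and runs past the end of the printed stretch. A match is a description of letters and not of binding.
SLC3A2: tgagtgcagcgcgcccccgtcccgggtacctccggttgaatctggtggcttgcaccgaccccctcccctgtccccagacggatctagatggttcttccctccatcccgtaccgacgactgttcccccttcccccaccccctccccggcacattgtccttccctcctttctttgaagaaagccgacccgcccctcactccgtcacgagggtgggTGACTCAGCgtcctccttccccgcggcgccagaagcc
SLC7A5: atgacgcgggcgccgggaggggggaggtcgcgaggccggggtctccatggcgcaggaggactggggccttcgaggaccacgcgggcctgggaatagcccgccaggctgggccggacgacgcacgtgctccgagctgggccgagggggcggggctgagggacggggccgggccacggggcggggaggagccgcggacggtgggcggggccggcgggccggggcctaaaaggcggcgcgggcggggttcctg

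All 10 transporters stood lower with ISL1 in pair 1, and 7 of 10 stood higher with ISL1 in pair 2. Lower by any amount in pair 1 were 50.6% of all tested genes, and higher by any amount in pair 2 were 54.6%. The median difference of the transporters, ISL1 minus blank on the log2(RPKM + 1) scale, was -0.64 in pair 1 and 0.36 in pair 2, where the medians over all tested genes were -0.00 and 0.06. SLC7A11, SLC7A5, SLC3A2, SLC43A1, SLC38A2, SLC1A5 and SLC7A1 were lower in pair 1 and higher in pair 2, a pattern shared by 31.5% of tested genes. SLC7A2, SLC38A1 and SLC1A4 were lower in both pairs, as were 19.1% of tested genes, and no transporter was higher in both, as were 23.1%. With median-ratio scaling SLC7A2 turned to 0.02 in pair 1 and SLC7A1 to -0.13 in pair 2, and with quantile normalization SLC7A1 turned to -0.05 in pair 2, so that 9 of 10 were lower in pair 1 with median-ratio scaling and 6 of 10 higher in pair 2 with either. Among those 9, SLC1A5 stood at only -0.0039 in pair 1 with median-ratio scaling. Each pair holds a single library of either virus, so the differences within a pair carry no test. In bulk RNA, fewer cells of a type and less RNA per cell cannot be told apart.

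**Figure D1:**
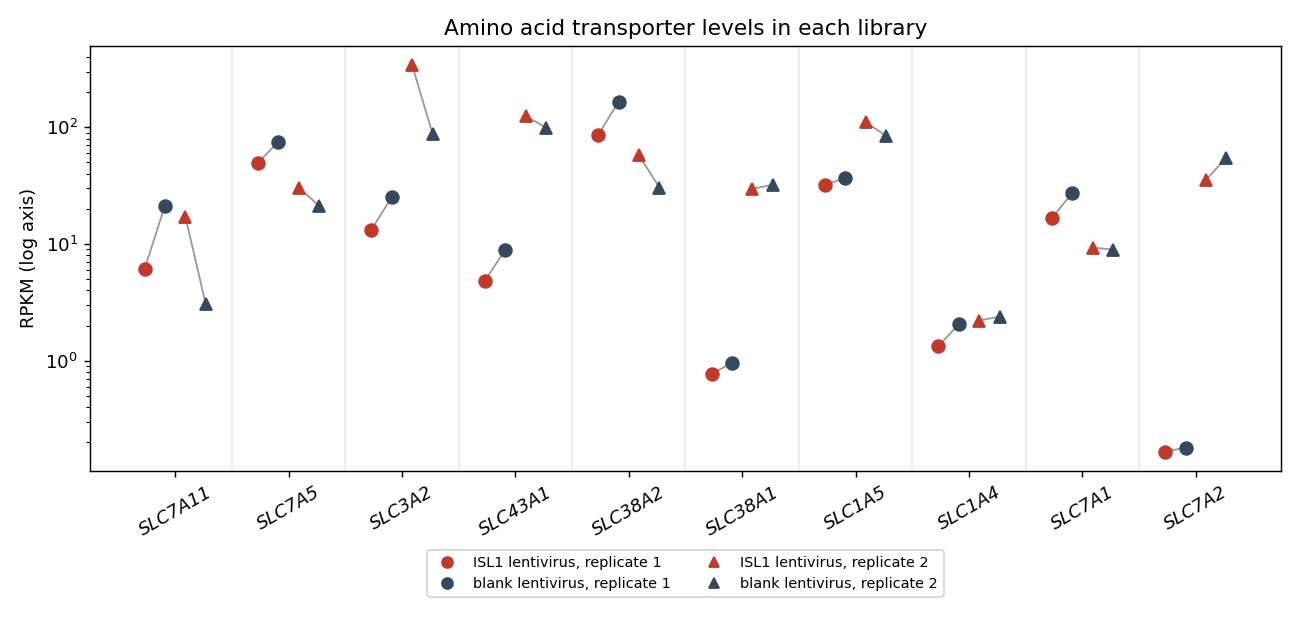
Level of each amino acid transporter in each library, in RPKM on a log axis, with ISL1 libraries in red, blank libraries in dark blue, circles for replicate 1, triangles for replicate 2 and lines joining the libraries of a pair. Every red circle lies below its blue circle, and 7 of 10 red triangles lie above their blue triangle (6 of 10 with median-ratio scaling or quantile normalization, where SLC7A1 turns, and 9 of 10 circles below with median-ratio scaling, where SLC7A2 turns).

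SLC7A11, the light chain that exchanges extracellular cystine for glutamate and so feeds glutathione synthesis, differed most among the transporters in both pairs. Its level was 6.12 and 17.2 RPKM in the first and second ISL1 libraries, against 21.4 and 3.04 RPKM in the blank libraries. The order of the groups was thus opposite in the pairs, and the groups overlapped. The ratio of ISL1 to blank was 0.286 in pair 1, with an exact 95% counting interval of 0.272 to 0.300 from 2191 and 6663 reads. It was 5.67 in pair 2, with an interval of 5.29 to 6.07 from 4885 and 1004 reads. These read numbers are the smallest whole ones that give the deposited values, and the intervals cover counting error only. On the log2(RPKM + 1) scale it differed by -1.65 and 2.17. Of all tested genes, 0.659% had a lower difference in pair 1 and 0.415% a higher one in pair 2. An antisense gene, SLC7A11-AS1, was listed at 0.110 RPKM in the first ISL1 library and 0.0995 RPKM in the first blank library, and whether reads were counted by strand is not given in the sources used here.

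SLC3A2, the heavy chain (CD98) shared by SLC7A11, SLC7A5 and other light chains, had the second largest difference in pair 2. It stood at 13.3 and 340.5 RPKM in the ISL1 libraries, against 25.2 and 87.7 RPKM in the blank ones. The ISL1 library was the lower of pair 1 and the higher of pair 2, and the groups overlapped. The ratio of ISL1 to blank was 0.526 (counting interval 0.474 to 0.584) in pair 1 and 3.88 (3.78 to 3.99) in pair 2. Among tested genes, 3.24% had a lower difference in pair 1 and 0.604% a higher one in pair 2.

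SLC7A5 (LAT1), the light chain that takes up leucine and other large neutral amino acids, followed the same order with smaller differences. Its level was 49.4 and 30.4 RPKM in the ISL1 libraries, against 75.6 and 21.2 RPKM in the blank libraries, so both second libraries lay below both first ones. The ratio was 0.654 (counting interval 0.636 to 0.673) in pair 1 and 1.43 (1.37 to 1.499) in pair 2. SLC7A5 has near-identical pseudogenes, and its reads may have been shared with them. SLC7A5P1 was listed in pair 1, at 1.36 RPKM with ISL1 and 1.46 RPKM with blank virus, and SLC7A5P2 at 0.971 and 0.801 RPKM in the same order.

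Heavy and light chains can be set against each other per length within a library. The smallest length implied for SLC3A2 was not the same in the pairs, so its quotients are read within a pair. By this measure SLC3A2 was 0.239 of the summed SLC7A5 and SLC7A11 level in the first ISL1 library, against 0.260 in the first blank library. In pair 2 the same quotient was 7.16 in the ISL1 library and 3.62 in the blank library. The cystine light chain also shifted against the leucine light chain. SLC7A5 was 8.08 times the level of SLC7A11 in the first ISL1 library and 3.53 times in the first blank library, but 1.77 times in the second ISL1 library and 6.99 times in the second blank library.

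SLC43A1 (LAT3), which carries branched-chain and other neutral amino acids without a heavy chain, stood at 4.82 and 125 RPKM in the ISL1 libraries, against 8.93 and 99.6 RPKM in the blank libraries. Both libraries of pair 2 were above both of pair 1, whatever the virus. The ratio of ISL1 to blank was 0.539 (counting interval 0.479 to 0.607) in pair 1 and 1.26 (1.22 to 1.30) in pair 2.

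Among the carriers of glutamine and small neutral amino acids, SLC38A2 (SNAT2), the member of its family best known to respond to amino acid shortage, had the largest differences. It stood at 86.0 and 57.7 RPKM in the ISL1 libraries, against 166 and 30.5 RPKM in the blank libraries. The blank libraries were thus the highest and the lowest of the 4. The ratio of ISL1 to blank was 0.518 (counting interval 0.508 to 0.528) in pair 1 and 1.89 (1.83 to 1.96) in pair 2. SLC38A1 (SNAT1), its close relative, stood at 0.777 and 29.8 RPKM in the ISL1 libraries, against 0.952 and 32.2 RPKM in the blank libraries. Its levels separated by pair and not by virus, and it differed by -0.14 in pair 1 and by -0.11 in pair 2 on the log2(RPKM + 1) scale. SLC38A2 was 111 and 1.93 times the level of SLC38A1 in the first and second ISL1 libraries, against 174 and 0.947 times in the blank libraries.

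SLC1A5 (ASCT2), the glutamine exchanger often raised in tumours, stood at 32.1 and 111 RPKM in the ISL1 libraries, against 36.9 and 84.2 RPKM in the blank libraries. Again both second libraries were above both first ones. The ratio was 0.868 (counting interval 0.828 to 0.911) in pair 1 and 1.32 (1.28 to 1.35) in pair 2. The values of pair 1 rest on 3420 and 3425 reads, nearly equal numbers, so their ratio depends mainly on the depths of the 2 libraries. With median-ratio scaling SLC1A5 differed by -0.0039 in pair 1 on the log2(RPKM + 1) scale, against -0.20 with the deposited scaling. In pair 2 it differed by 0.18, against 0.39. SLC1A4 (ASCT1), a serine and alanine exchanger, was low throughout, at 1.33 and 2.21 RPKM in the ISL1 libraries against 2.06 and 2.39 RPKM in the blank libraries. Its ratio was 0.648 in pair 1, with a counting interval of 0.475 to 0.881 from 76 and 102 reads. In pair 2 the ratio was 0.924, with an interval of 0.704 to 1.21 from 100 and 126 reads. Pair 1 thus differed beyond counting error and pair 2 did not.

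SLC7A1 (CAT1), the widely expressed arginine and lysine carrier, stood at 16.7 and 9.32 RPKM in the ISL1 libraries, against 27.4 and 8.97 RPKM in the blank libraries. Pair 1 differed beyond counting error and pair 2 did not. The ratio was 0.609 (counting interval 0.587 to 0.633) in pair 1 and 1.04 (0.978 to 1.10) in pair 2. SLC7A2 (CAT2), whose liver form has low affinity for arginine, showed the widest gap between the pairs. It stood at 0.167 and 35.5 RPKM in the ISL1 libraries, against 0.180 and 55.2 RPKM in the blank libraries. In pair 1 the values rest on 47 and 44 reads and the ratio of 0.929 had a counting interval of 0.602 to 1.43. In pair 2 they rest on 7916 and 14339 reads, with a ratio of 0.643 (0.625 to 0.661). The order of the 2 cationic carriers was opposite in the pairs, with SLC7A1 at 99.9 times SLC7A2 in the first ISL1 library and 152 times in the first blank library, against 0.263 and 0.163 times in the second libraries of the same groups.

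**Figure D2:**
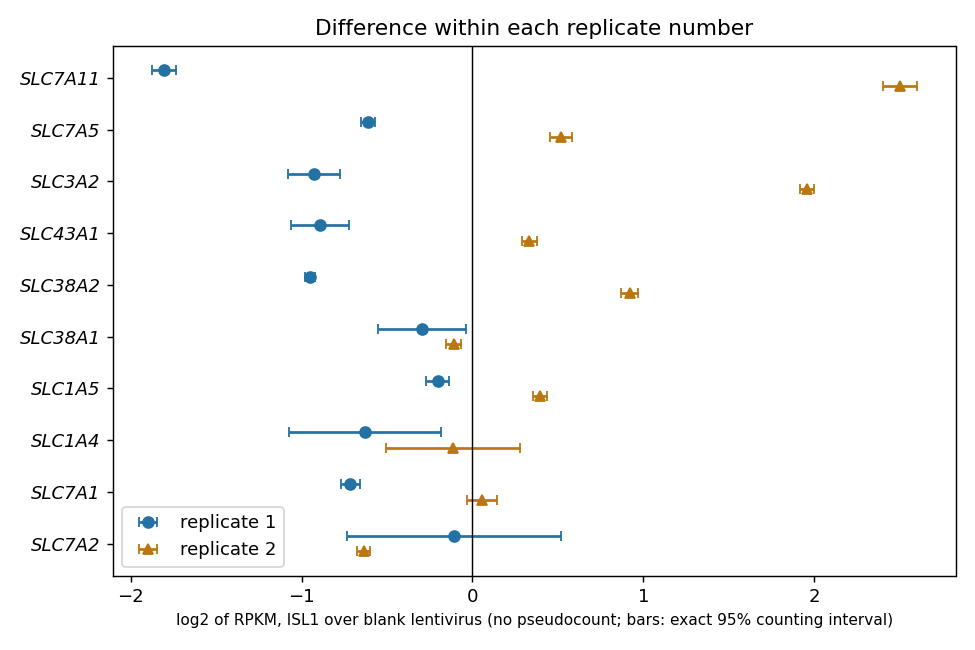
Difference of each transporter within each pair, as log2 of the RPKM ratio of ISL1 to blank lentivirus without a pseudocount, with circles for replicate 1, triangles for replicate 2 and bars for the exact 95% counting interval. The interval left out a ratio of 1 for 9 of 10 genes in pair 1 (57.1% of tested genes with recovered reads), all lower with ISL1, and for 8 of 10 in pair 2 (80.9% of such genes), 6 of them higher with ISL1. The bars hold the deposited scaling fixed.

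The counting interval left out a ratio of 1 for 9 of the 10 transporters in pair 1, SLC7A2 being the exception, against 57.1% of the 10829 tested genes whose reads could be recovered. In pair 2 it did so for 8 of 10, where SLC7A1 and SLC1A4 were the exceptions, against 80.9% of 10902 genes, so that the share of the transporters was near that of all genes. It lay wholly below 1 in pair 1 for 9 of 10 (29.2% of genes) and, in pair 2, wholly above 1 for 6 of 10 (44.3% of genes) and wholly below 1 for SLC7A2 and SLC38A1 (36.6% of genes). This compares 2 libraries and not the conditions. The intervals hold the deposited scaling fixed and were not computed under the other scalings. With median-ratio scaling SLC1A5 and SLC38A1 differed by only -0.0039 and -0.054 in pair 1 on the log2(RPKM + 1) scale. At least 2-fold lower in pair 1 was SLC7A11 alone on the log2(RPKM + 1) scale (1 of 10, against 2.36% of tested genes). At least 2-fold higher in pair 2 were SLC7A11 and SLC3A2 (2 of 10, against 6.49% of tested genes). No transporter had both ISL1 libraries above both blank libraries or below them, which held for 5.52% and 5.08% of tested genes. In the pooled limma test on log2(RPKM + 1), 2 libraries against 2, no transporter passed an adjusted p of 0.05, and 0 of 11085 genes did (0% in either direction, with 15 genes at an unadjusted p under 0.05). The pooled differences ran from -0.32 (SE 2.84, SLC7A2) to 0.53 (SE 1.85, SLC3A2), with limma adjusted p = 1.00 for each transporter. For SLC7A11 the pooled difference was 0.26 (SE 1.15), from means of 11.7 ± 7.84 RPKM with ISL1 and 12.2 ± 13.0 RPKM with blank virus (SD, n = 2 each). With 2 libraries a group, the smallest two-sided p of an exact permutation test is 0.333. Leaving out 1 library turned the sign of the pooled difference for 9 of the 10 transporters, SLC1A4 being the exception.

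**Figure D3:**
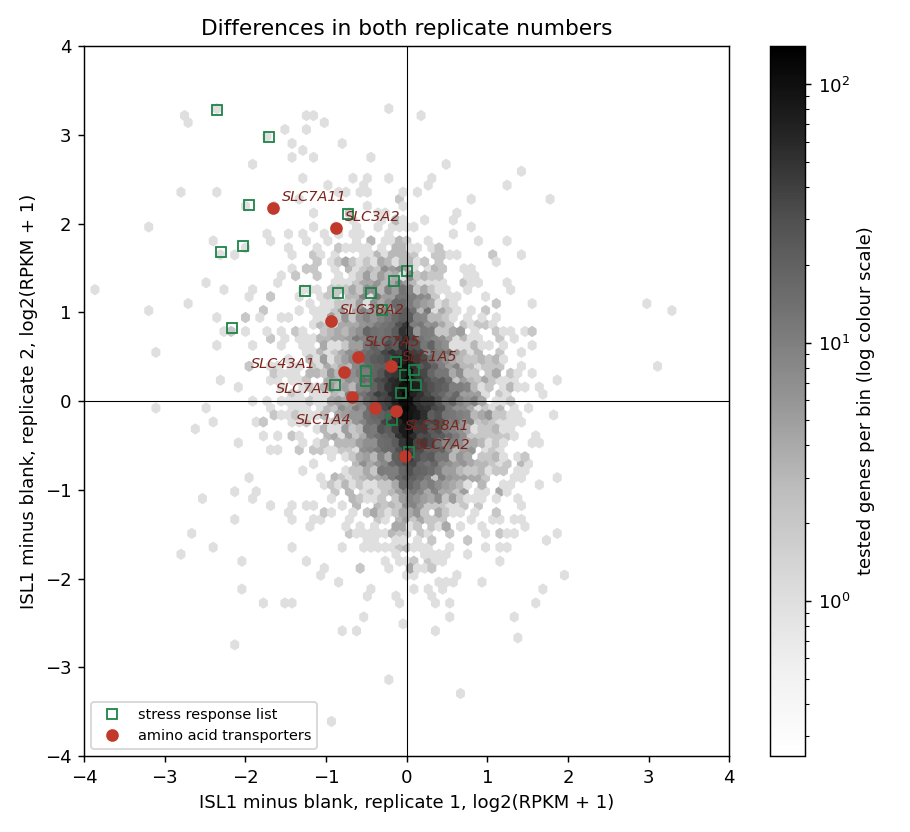
Difference of each tested gene (ISL1 minus blank, log2(RPKM + 1)) in replicate 1 on the x axis and replicate 2 on the y axis, with grey bins for all tested genes, red points for the amino acid transporters and green squares for the amino acid and integrated stress response list. All red points lie left of 0 on the x axis and 7 of 10 above 0 on the y axis (SLC7A2 and SLC7A1 cross with other scalings), with SLC7A11 at -1.65 and 2.17. Of the tested genes, 2 lie outside the plotted range of 4 in either direction.

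The order of the levels differed between the pairs. In both libraries of pair 1 the order from highest to lowest was SLC38A2, SLC7A5, SLC1A5, SLC7A1, SLC3A2, SLC7A11, SLC43A1, SLC1A4, SLC38A1 and SLC7A2. In the second ISL1 library SLC3A2, SLC43A1 and SLC1A5 led, and in the second blank library SLC43A1, SLC3A2 and SLC1A5. The second blank library was over 10-fold above the first for SLC7A2 (307-fold), SLC38A1 (33.8-fold) and SLC43A1 (11.1-fold). Lower there were SLC7A11 (0.142-fold), SLC38A2 (0.184-fold), SLC7A5 (0.281-fold) and SLC7A1 (0.328-fold). A gap of at least 10-fold between the blank libraries held for 3 of the 10 transporters and for 37.0% of tested genes. For 8 of the 10 genes the transcript length implied by the values was the same in both pairs, among them SLC7A11 with 9648 bases, SLC38A1 with 8487 and SLC7A2 with 7584. The exceptions were SLC3A2, with a smallest implied length of 1175 bases in pair 1 and 2347 in pair 2, and SLC43A1, with 2555 and 2384. A whole multiple of a smallest implied length gives the same values, so 1175 and 2347 need not mean transcripts of such unlike length. Virus groups were compared within a pair for these levels.

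The list of amino acid and integrated stress response regulators and targets showed the same opposite directions as the transporters. Of its 23 tested genes (of 24), 20 were lower in pair 1 and 21 higher in pair 2, and 19 did both. Over all tested genes these shares were 50.6%, 54.6% and 31.5%. The medians of the list were -0.50 in pair 1 and 1.02 in pair 2, and no gene passed the pooled limma test. The list was chosen with earlier results of these data known, so its likeness to the transporters is a description and not a test. SESN2, a sestrin that restrains mTORC1 when leucine is short, stood at 5.53 and 22.8 RPKM in the ISL1 libraries, against 28.2 and 12.5 RPKM in the blank libraries. EIF2AK3 (PERK), the eIF2 kinase of the endoplasmic reticulum, stood at 14.1 and 13.0 RPKM with ISL1, against 27.1 and 11.4 RPKM with blank virus. NUPR1, a stress-induced nuclear protein, stood at 0.689 and 4.77 RPKM with ISL1, against 0.891 and 1.25 RPKM with blank virus. PSPH, the last enzyme of serine synthesis, was the gene of the list that was lower in both pairs, by -0.19 and -0.21.

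Further genes of that list were chosen after their values were seen. ATF4 itself differed by -0.50 and 0.22, at 13.9 and 298 RPKM with ISL1 against 20.1 and 256 RPKM with blank virus. ASNS, asparagine synthetase, differed by -0.73 and 2.10, and DDIT3 (CHOP), a pro-apoptotic partner of ATF4, by -1.71 and 2.98. TRIB3, a pseudokinase induced by ATF4, differed by -2.04 and 1.74. EIF2AK4 (GCN2), the kinase that senses uncharged tRNA, differed by only -0.07 and 0.09, at 6.09 and 5.92 RPKM with ISL1 and 6.47 and 5.48 RPKM with blank virus. The heart and erythroid markers given above differed in the same pair 2 libraries.

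The other lists differed from one another in direction. Of 13 tested other plasma membrane transporters (of 25), 6 were lower in both pairs, 2 higher in both, 1 lower then higher and 4 higher then lower. Of all tested genes, 19.1% were lower in both pairs, 23.1% higher in both and 31.5% lower then higher. The medians of the list were -0.06 and -0.56. SLC38A3 (SNAT3), a glutamine carrier of the liver, stood at 20.5 and 20.0 RPKM with ISL1, against 10.7 and 19.0 RPKM with blank virus. SLC43A2 (LAT4), a relative of SLC43A1, stood at 11.1 and 14.3 RPKM with ISL1, against 18.4 and 15.8 RPKM with blank virus. SLC6A19, a neutral amino acid carrier of gut and kidney, stood at 0.738 and 0.747 RPKM with ISL1, against 1.81 and 2.58 RPKM with blank virus. SLC3A1, the other heavy chain of the SLC7 light chains, was at most 3.30 RPKM and differed by -1.02 and -0.47. In pair 2, 10 of the 13 were lower with ISL1, whereas 3 of the 10 transporters described above were. This contrast is between lists and was not tested. Higher in pair 2 by any amount were 54.6% of all tested genes.

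Of 7 tested lysosomal transporters (of 8), 5 were lower in pair 1 and 5 higher in pair 2, and 4 did both. Over all tested genes these shares were 50.6%, 54.6% and 31.5%. The medians of the list were -0.06 and 0.03. SLC36A1 (PAT1), a proton-coupled exporter of small amino acids, differed by 0.09 and -1.76. SLC38A7 (SNAT7), a lysosomal glutamine exporter, differed by -0.20 and -0.64, SLC36A4 (PAT4) by -0.44 and 0.03, and SLC15A4, a histidine and peptide carrier, by -0.53 and 0.39.

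Of the 12 tested genes of the cystine, glutathione and NRF2 list, 8 were lower in pair 1 and 8 higher in pair 2, and 6 did both. Over all tested genes these shares were 50.6%, 54.6% and 31.5%. The medians of the list were -0.09 and 0.55. GCLM, the modifier subunit of the rate-limiting enzyme of glutathione synthesis, stood at 18.3 and 19.8 RPKM with ISL1, against 17.2 and 6.96 RPKM with blank virus. HMOX1, the heme oxygenase induced by NRF2, stood at 17.3 and 75.6 RPKM with ISL1, against 11.6 and 41.2 RPKM with blank virus, higher in both pairs. GSS, glutathione synthetase, differed by 0.10 and -0.41. CTH, which makes cysteine from cystathionine and belongs also to the stress response list, was at 0.0126 and 25.1 RPKM with ISL1 against 0.0145 and 8.46 RPKM with blank virus, so its pair 1 values lie under the level that 3 reads in a transcript of 1 kb would give (0.0808 RPKM in the ISL1 library, 0.0929 in the blank library).

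Glutamine and arginine enzymes (13 of 14 tested) had 4 genes lower in both pairs, 4 lower then higher and 5 higher then lower. Of all tested genes, 19.1% were lower in both pairs, 23.1% higher in both and 31.5% lower then higher. The remaining genes were higher then lower or unchanged in a pair. The medians of the list were -0.15 and -0.35. GOT1, an aspartate aminotransferase, stood at 46.2 and 101 RPKM with ISL1, against 53.9 and 52.5 RPKM with blank virus. ODC1, which makes putrescine from ornithine, differed by -0.15 and -0.35, and GLUD1, glutamate dehydrogenase, by 0.37 and -0.70. Genes of amino acid sensing to mTORC1 (16 of 19 tested) had medians of 0.02 and 0.07, near those of all genes. LAMTOR1, an anchor of the Ragulator complex, differed by 0.02 and -0.54, LAMTOR2, another subunit, by 0.18 and 0.96, RRAGA, a Rag GTPase, by 0.42 and 0.13, and NPRL2, a GATOR1 subunit, by 0.44 and 0.54. None of the genes of these lists passed the pooled limma test (adjusted p = 1.00 for each gene named).

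**Figure D4:**
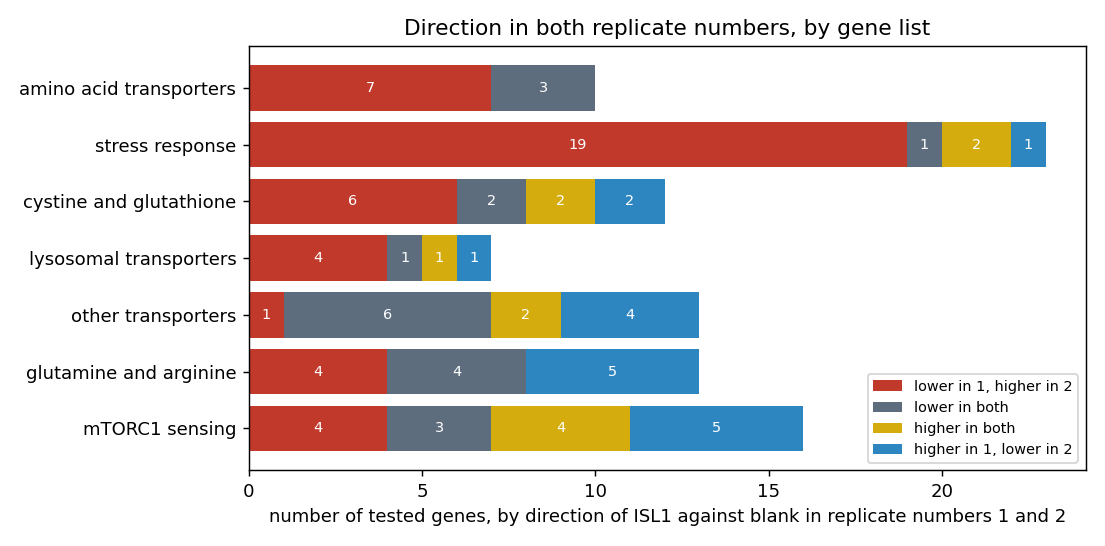
Number of tested genes of each list by the direction of ISL1 against blank lentivirus in replicate numbers 1 and 2, as stacked bars. Lower in pair 1 and higher in pair 2 were 7 of 10 amino acid transporters and 19 of 23 genes of the stress response list. SLC7A1 leaves this class with median-ratio scaling and quantile normalization. The class also held 4 of 7 lysosomal transporters and 6 of 12 genes of the cystine and glutathione list. It held 1 of 13 other transporters, 4 of 13 glutamine and arginine genes and 4 of 16 mTORC1 sensing genes, and 31.5% of all tested genes.

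By the distance between their 2 differences and those of SLC7A11, the 5 tested genes most like it over the 2 pairs were CHAC1, KLHL24, LARP6, PMAIP1 and NFKBIA, at distances of 0.309 to 0.375 on the log2 scale. CHAC1, which degrades glutathione, stood at 0.734 and 32.0 RPKM with ISL1, against 5.75 and 6.17 RPKM with blank virus. PMAIP1 (NOXA), a pro-apoptotic BH3 protein, stood at 9.03 and 41.1 RPKM with ISL1, against 24.0 and 7.496 RPKM with blank virus. NFKBIA, the inhibitor of NF-kB, stood at 19.6 and 93.2 RPKM with ISL1, against 65.6 and 26.1 RPKM with blank virus. At least 2-fold lower in pair 1 and at least 2-fold higher in pair 2 were 72 tested genes (0.65%), SLC7A11 among them.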

How the data were processed

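For each library the authors deposited a table of RPKM values by gene symbol, without read counts. Per the submitters' processing notes, CASAVA 1.4, BWA and hg19 were used. Annotation and counting tool were not given in the sources used here. Coordinates on hg19 are not printed, and promoter windows come from RefSeq on GRCh38.p14. The 16640 genes of the replicate 1 tables and the 17197 of the replicate 2 tables were joined by symbol. Depth was recovered from the steps of values below 5 RPKM: between the 2 libraries of a replicate number (a pair), 97.5% (replicate 1) and 95.1% (replicate 2) equalled, to 1e-07 of their value, a ratio whose terms are whole and at most 500, against 1.28% and 1.23% after multiplication by an arbitrary factor. The depth taken was the 1 given by most pairs of genes (44.2% in replicate 1 and 32.3% in replicate 2, against 14.7% and 17.5% for the next value), so it is an inference. Read numbers of the transporters are the smallest whole numbers that give their ratio and a whole transcript length, and were used only for exact (Clopper-Pearson) 95% counting intervals. PCR duplicates are not told apart, so intervals and floors (3 reads) cover counting error only.

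Genes listed in all 4 tables that reached 1 RPKM in 2 or more libraries were tested with limma 3.58.1 (R 4.3.3, lmFit, eBayes with trend). The test was on log2(RPKM + 1), two-sided, with Benjamini-Hochberg adjustment over 11085 genes. The fit was also run on simulated data. Recovery was required there only without a shift between replicate numbers, so that run does not show how the fit performs on these libraries. Differences on this scale understate the change of low genes. The transporters and the lists were chosen with earlier results of these data known. All transporters are named. Of each list, up to 4 genes with the smallest unadjusted p are named, and the 5 genes nearest to SLC7A11 by Euclidean distance. From the stress response list ATF4, ASNS, DDIT3, TRIB3 and EIF2AK4 are named as well, chosen after their values were seen. Some genes of the lists are not reported here. Tables and figures were made with pandas 2.3.3, SciPy 1.17.1, NumPy 2.4.6 and matplotlib 3.10.9 in Python 3.11.15. Alternatives were the pseudocount, the filter, 2 scalings, eBayes without trend, the replicate block and leaving out each library.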

Additional observations from a re-analysis of the deposited data

How the results depend on the processing

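The number of genes past the threshold was 0 in each direction under every alternative except quantile normalization, where 1 gene was higher, ISL1 itself (limma adjusted p = 0.00998). The pooled test has 2 residual degrees of freedom, and the libraries deviate from their group means by replicate number (correlation of deviations 0.882 across genes, with 2 pairs only). With the replicate block, 0 genes passed (260 at an unadjusted p under 0.05), the pooled differences of the transporters were the same by construction, with SE of 0.30 to 0.72, and the smallest limma adjusted p among them was 1.00. The labels give no source of pairing beyond the shared number. Leaving out 1 library at a time moved the pooled differences over -0.98 to 1.496 for SLC7A11, -0.95 to 0.84 for SLC7A5, -1.07 to 0.44 for SLC7A1, -3.11 to 2.47 for SLC7A2, -1.76 to 2.82 for SLC3A2, -2.18 to 1.94 for SLC38A1, -1.23 to 1.18 for SLC38A2, -0.78 to 0.98 for SLC1A5, -2.44 to 2.00 for SLC43A1 and -0.47 to -0.00 for SLC1A4. Median-ratio scaling moved the median of all genes by 0.09 in pair 1 and by -0.18 in pair 2. Under it the median difference of the transporters was -0.45 in pair 1 and 0.15 in pair 2, and 1 gene, SLC7A2, stood higher in pair 1 and lower in pair 2. Quantile normalization gave a pair 2 median of 0.30. SLC1A4 could not be tested at a minimum of 5 RPKM. Low read numbers widen the counting intervals of SLC7A2 in pair 1 and of SLC1A4 in both pairs. These intervals include a ratio of 1, except that of SLC1A4 in pair 1.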
